A study of Mus musculus with 56 samples.

Results

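Orthotopic tumours grown from N-myc-transduced cerebellar neural stem cells were compared with the transduced stem cells before transplantation. The question was what growth in the brain adds to the expression profile once N-myc is already on. The comparison holds 8 of the 56 arrays of the series, chosen by their sample titles: 6 tumours and 2 cultures of neural stem cells (NSCs). All mice were of the FVB/N background. The NSCs had been isolated from cerebellum at postnatal day 0 (P0C) or embryonic day 16 (E16C) and transduced with N-myc(T58A), a form that the design text calls mutation-stabilised. There were 3 P0C tumours and 3 E16C tumours, and 1 array each of N-myc NSCs of P0C and of E16C origin. Tumours and cultured cells therefore carried the same N-myc form and came from the same regions, and they differed in transplantation and in growth in a brain instead of a dish. Each N-myc culture was measured once, so the spread within an origin comes from the tumours alone. No label tells if tumours of the same origin came from 1 transduced culture or several, so the p-values below measure only the spread between these samples. Cells grown from 1 P0C and 1 E16C tumour, and GFP-transduced NSCs of P0C (1 sorted and 1 unsorted array) and E16C origin (1 array), were set beside the comparison as values without a test.

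N-myc, encoded by Mycn, is a transcription factor that drives growth and division of neural progenitors, and its amplification marks aggressive medulloblastoma, a tumour of the cerebellum. The substitution at its phosphorylation site slows the breakdown of the protein. NSC cultures grow in medium that usually supplies EGF and FGF, whereas a tumour holds vessels, immune cells and matrix besides the tumour cells themselves. All levels given here are log2 values that the authors obtained with RMA, a standard summary of array probes, and differences are tumour minus N-myc NSC in log2 units, so that 1 unit is a 2-fold difference. A level near 6 lies in the dimmest part of the array (the percentile 25 of all values was 6.30), and a ratio against so dim a value is compressed.

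The title gene was checked first. Mycn stood at 9.00, 8.51 and 9.20 in the P0C tumours and 9.34, 9.39 and 9.10 in the E16C tumours, against 9.12 in P0C and 9.29 in E16C N-myc NSCs. The tumours lay on both sides of the N-myc NSCs, and the difference was -0.11 ± 0.24 (SE, adjusted p = 0.889 in limma). The GFP NSCs were lower, at 6.27 and 6.75 for P0C and 7.19 for E16C. One tag of the E16C N-myc array names GFP, but its title, its source name and its Mycn level go with N-myc. The probe does not tell the transduced form from the mouse's own Mycn transcript. Myc, the related proto-oncogene, was 8.43, 10.08 and 7.39 in P0C tumours and 6.52, 7.27 and 7.11 in E16C tumours, against 9.76 and 10.22 in P0C and E16C N-myc NSCs. Only P0C tumour 2 reached the level of the N-myc NSCs, and the difference of -2.19 ± 0.71 did not pass the test (adjusted p = 0.300).

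The 2 N-myc NSC arrays were the most alike of the 8, with a Pearson correlation of 0.965 over 13677 genes, as a description. Some tumours stood apart. E16C tumour 3 correlated with P0C tumours 1 and 3 at 0.933 and 0.928, and with E16C tumours 1 and 2 at 0.916 and 0.914. With P0C tumour 2 it correlated at 0.898. P0C tumour 2 correlated with the 5 other tumours at 0.871 to 0.915. Array medians were 7.91 to 8.03 in tumours and 8.12 and 8.14 in N-myc NSCs, and blank probes numbered 558 to 864 in tumours and 1308 and 1476 in N-myc NSCs. Other cultures did not all share this offset. Both tumour cell arrays had a median of 7.97, with 743 (P0C) and 804 (E16C) blanks. Sorted and unsorted P0C GFP NSCs had medians of 8.03 and 8.0, with 910 and 689 blanks. E16C GFP NSCs had a median of 8.25 and 2127 blanks. A blank has no value, so a gene that is blank in both N-myc NSC arrays could not be tested.

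Of 12076 genes tested, 20 passed an adjusted p of 0.05: 13 were higher in tumours (0.108% of the genes tested) and 7 lower (0.058%). In all 20, the 6 tumours and the 2 N-myc NSC arrays did not overlap. At an unadjusted p of 0.05 there were 1419 genes, 588 higher and 831 lower. The count depended on single arrays. Without P0C tumour 2 it was 26 higher and 32 lower, and without P0C tumour 3 it was 25 and 7. Without P0C tumour 1 it was 5 and 2, without E16C tumour 1 it was 7 and 5, and without E16C tumour 3 it was 1 and 0. Without E16C tumour 2, or without either N-myc NSC array, no gene passed. Without P0C tumour 2 and E16C tumour 3 together (chosen after seeing the data), 18 genes were higher and 24 lower, 12 of them among the 20. Because few genes passed, gene lists are described by a second count: genes in which all 6 tumours lay on one side of both N-myc NSC arrays with a difference of at least 2-fold. This held for 295 of the genes tested on the higher side (2.44%) and 246 on the lower side (2.04%). With no demand on size, all 6 tumours lay above both N-myc NSC arrays in 6.05% of genes and below both in 8.81%. The median difference over all genes tested was -0.06.

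**Figure D1:**
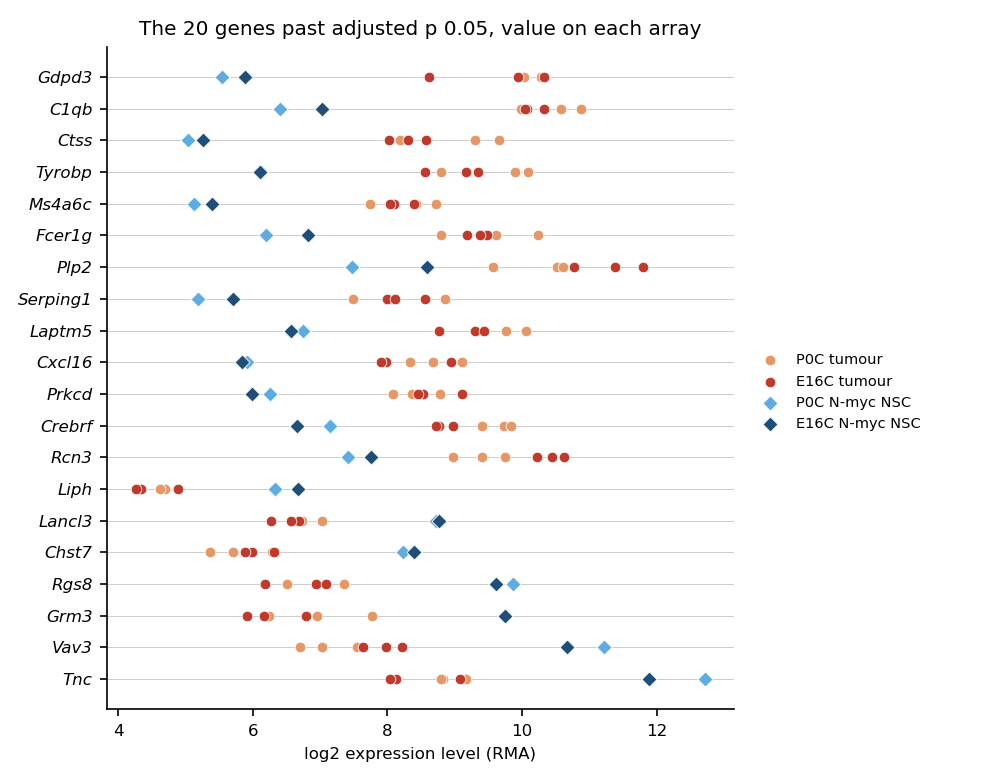
Log2 level of the 20 genes that passed the adjusted test, one row per gene and one point per array, with tumours as circles and N-myc NSCs as diamonds, ordered by the difference. No tumour overlaps an N-myc NSC in any row; E16C tumour 3 lies apart from the other tumours in Gdpd3, at 8.61.

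Genes of microglia and macrophages were the largest group among those that rose. Microglia are the resident immune cells of the brain, and with infiltrating macrophages they are the usual myeloid cells of brain tumours. Of 18 such marker genes tested, 5 rose (C1qb, Ctss, Tyrobp, Fcer1g and Laptm5), against 0.108% of all genes, and no list member fell. On the wider count 13 of 18 were higher without overlap and at least 2-fold, against 2.44% of all genes, and the median difference of the list was 1.57. In bulk samples like these, more cells of a type and more RNA per cell cannot be told apart. C1qb, a chain of the complement starter C1q, was 10.87, 10.58 and 9.98 in P0C tumours and 10.07, 10.04 and 10.32 in E16C tumours, against 6.40 in P0C and 7.03 in E16C N-myc NSCs. The tumours kept within 1 log2 unit of each other, and C1qb rose by 3.60 ± 0.31 (SE, 12.1-fold, adjusted p = 0.0159). Ctss, the lysosomal protease cathepsin S, had levels of 9.30, 9.66 and 8.19 in P0C tumours and 8.02, 8.57 and 8.30 in E16C tumours, against 5.04 and 5.26 in P0C and E16C N-myc NSCs. It rose by 3.52 ± 0.41 (adjusted p = 0.0303). Tyrobp, the adaptor through which Trem2 signals, rose by 3.20 ± 0.38, with 8.56 to 10.08 in tumours and 6.12 and 6.10 in P0C and E16C N-myc NSCs (adjusted p = 0.0303). Fcer1g, the shared chain of Fc receptors, and Laptm5, a lysosomal membrane protein of blood cells, rose by 2.94 and 2.69 (adjusted p = 0.0404 and 0.0409). Ms4a6c, a myeloid membrane protein outside the list, rose by 2.98 ± 0.29, at 7.74 to 8.72 in tumours against 5.12 and 5.39 in P0C and E16C N-myc NSCs (adjusted p = 0.0188). Both N-myc NSC values of Ms4a6c lay under the percentile 25 of all values. It could therefore reach the brightness needed for the test in tumours alone.

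The receptors of the list did not pass the test. Csf1r, the receptor on which microglia depend for survival, was 8.70, 8.87 and 7.73 in P0C tumours and 8.29, 8.34 and 8.17 in E16C tumours, against 6.47 and 6.73 in P0C and E16C N-myc NSCs (difference 1.75, adjusted p = 0.108). Cx3cr1, the fractalkine receptor, differed by 1.55 (adjusted p = 0.163) and Trem2, a lipid-sensing receptor, by 1.01 (adjusted p = 0.186). The lowest differences of the list, picked by their values, were 0.02 for Tmem119, a microglial membrane protein, and 0.67 for P2ry12, an ADP receptor. The groups overlapped for Tmem119, and P2ry12 was 6.00 to 7.43 in tumours. The mean level of the 17 list genes without blanks was 7.84 to 8.88 in the 6 tumours, highest in P0C tumours 1 and 2, and 6.31 and 6.72 in the P0C and E16C N-myc NSCs. It was 6.37 in P0C and 6.50 in E16C tumour cells, and 6.48 to 6.84 in GFP NSCs, so all 7 cultures lay below all 6 tumours. Of the 18 genes tested, 6 averaged under the percentile 25 in N-myc NSCs, so they could reach the brightness needed for the test in tumours alone. A lymphocyte list had no such difference. Of its 16 genes 13 were measured and 5 could be tested, with a median of -0.06 and none at 2-fold without overlap.

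Most vessel genes had higher levels in tumours too, but none passed the adjusted test. Of 15 endothelial genes tested, all had a positive difference, as had 5274 of all 12076. Above both N-myc NSC arrays in every tumour lay 11 (6.05% of all genes did so), and 8 did so at 2-fold (2.44% of all genes). The list median was 1.16. Of the 15, 4 averaged under the percentile 25 in N-myc NSCs, where 709 of all genes tested did. A gene that dim there can reach the brightness needed for the test in tumours alone. Cdh5, the cadherin of endothelial junctions, was 8.71, 9.63 and 8.29 in P0C tumours and 7.94, 9.07 and 8.88 in E16C tumours, against 5.97 and 6.73 in P0C and E16C N-myc NSCs (difference 2.41 ± 0.45, adjusted p = 0.113). Emcn, an endothelial sialomucin, differed by 2.96 (adjusted p = 0.149) and Pecam1, an endothelial adhesion molecule, by 1.59 (adjusted p = 0.214). Kdr, the main VEGF receptor, was highest in E16C tumour 1 at 10.11, with 7.64 to 9.01 in the other tumours and 6.66 and 6.33 in P0C and E16C N-myc NSCs. Its ligand Vegfa was 9.58, 12.42 and 10.56 in P0C tumours and 10.58, 10.06 and 10.12 in E16C tumours, against 9.78 and 10.26 in P0C and E16C N-myc NSCs. P0C tumour 2 stood out in Vegfa, and it also had the highest endothelial mean, 8.55 against 7.33 to 7.91 in the other tumours and 6.34 and 6.67 in P0C and E16C N-myc NSCs. The pericyte list, 11 genes of the mural cells that wrap vessels, had 5 higher at 2-fold without overlap (2.44% of all genes were) and a median of 1.52. Of the 11, 3 averaged under the percentile 25 in N-myc NSCs. Rgs5, a pericyte regulator of G protein signalling, was 9.18, 11.26 and 9.40 in P0C tumours and 7.35, 9.08 and 8.97 in E16C tumours, against 6.33 and 6.89 in P0C and E16C N-myc NSCs. Among matrix genes, Nid1, a basement membrane linker, ran from 8.36 to 10.44 in tumours and was 5.98 and 6.78 in P0C and E16C N-myc NSCs (difference 2.95, adjusted p = 0.147).

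Cultures grown from tumours lay near the N-myc NSCs in both lists, as values without a test. For the microglia list the median of tumour cells minus N-myc NSCs was -0.03 in P0C and -0.25 in E16C, and for the endothelial list it was 0.16 and -0.53. Some mural and matrix genes, named after their values were seen, were high in the E16C tumour cells. Pdgfrb, the PDGF receptor of mural cells and fibroblasts, was 8.65 in E16C tumour cells but 6.33 in P0C tumour cells, and Dcn, the matrix proteoglycan decorin, was 11.40 and 6.16.

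**Figure D2:**
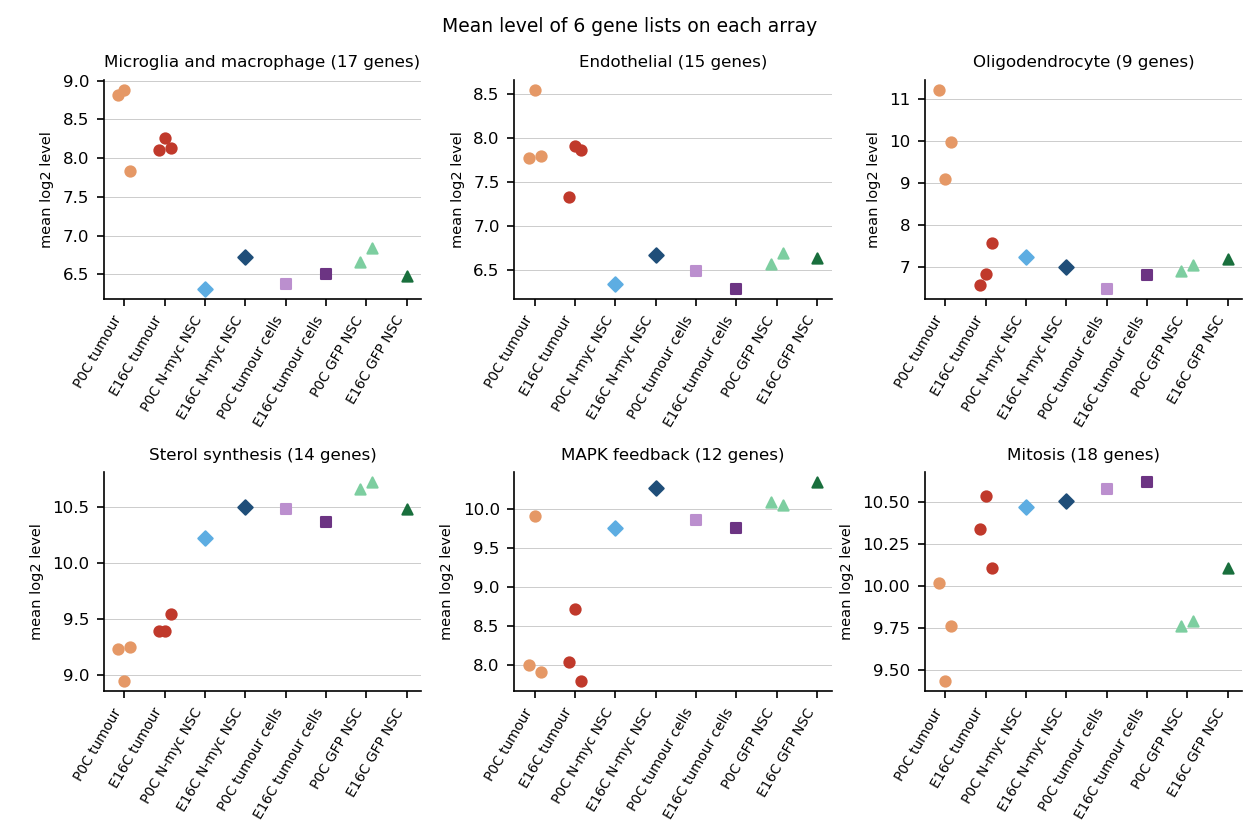
Mean log2 level of 6 gene lists on each array, with P0C and E16C tumours at the left of each panel, N-myc NSCs next, then cells grown from tumours and GFP NSCs; each point is 1 array. Microglia and endothelial levels are higher, and sterol levels lower, in all 6 tumours than in all 7 cultures, whereas oligodendrocyte levels separate P0C tumours from every other array.

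A further 7 genes rose, and none of them is on the microglia list. Among them, Gdpd3, Cxcl16, Prkcd and Serping1 lay under the percentile 25 of all values in both N-myc NSC arrays. Genes that dim there could reach the brightness needed for the test in tumours alone. Gdpd3, a lysophospholipase D, had the largest positive difference of all genes tested. It was 10.03, 10.28 and 10.34 in P0C tumours and 9.94, 10.33 and 8.61 in E16C tumours, against 5.54 in P0C and 5.89 in E16C N-myc NSCs, and it rose by 4.21 ± 0.44 (18.5-fold, adjusted p = 0.0236). It was also high in other cultures, at 8.53 and 9.05 in P0C and E16C tumour cells and 11.13, 10.56 and 8.00 in sorted P0C, unsorted P0C and E16C GFP NSCs. The N-myc NSC arrays were thus the low ones for this gene. Crebrf, a regulator of CREB3 turnover, had 9.41, 9.73 and 9.83 in P0C tumours and 8.76, 8.72 and 8.97 in E16C tumours, against 7.14 and 6.66 in P0C and E16C N-myc NSCs. It rose by 2.34 ± 0.21 (adjusted p = 0.0159), and it too was high in the P0C GFP NSCs (9.73 and 9.46). Plp2, a membrane proteolipid, was 10.52, 9.57 and 10.61 in P0C tumours and 11.38, 10.77 and 11.80 in E16C tumours, against 7.48 and 8.59 in P0C and E16C N-myc NSCs. It rose by 2.74 ± 0.36 (adjusted p = 0.0409), and it was 9.76 and 11.75 in P0C and E16C tumour cells, within the range of the tumours. Cxcl16, a chemokine that attracts Cxcr6-bearing lymphocytes, was 9.10, 8.68 and 8.34 in P0C tumours and 7.98, 8.94 and 7.91 in E16C tumours, against 5.92 and 5.84 in P0C and E16C N-myc NSCs, and it rose by 2.62 ± 0.33 (adjusted p = 0.0404). Prkcd, protein kinase C delta, was 8.78, 8.08 and 8.36 in P0C tumours and 9.11, 8.53 and 8.46 in E16C tumours, against 6.26 and 5.99 in P0C and E16C N-myc NSCs, and it rose by 2.43 ± 0.28 (adjusted p = 0.0303). Both were high in E16C tumour cells, at 8.69 for Cxcl16 and 8.87 for Prkcd, and lower in P0C tumour cells, at 6.43 and 7.01. Serping1, the inhibitor of C1 proteases, had 8.86, 8.04 and 7.49 in P0C tumours and 8.00, 8.56 and 8.11 in E16C tumours, against 5.18 and 5.71 in P0C and E16C N-myc NSCs, and it rose by 2.73 ± 0.36 (adjusted p = 0.0409). Rcn3, a calcium-binding protein of the endoplasmic reticulum, was 9.40, 9.74 and 8.97 in P0C tumours and 10.44, 10.22 and 10.62 in E16C tumours, against 7.42 and 7.75 in P0C and E16C N-myc NSCs, and it rose by 2.31 ± 0.28 (adjusted p = 0.0303). Serping1 and Rcn3 also had high values in the P0C GFP NSCs, 8.17 and 9.02 for Serping1 and 10.02 and 10.60 for Rcn3. In E16C GFP NSCs they were 6.77 and 8.04, and in P0C tumour cells 5.56 and 7.33, which is nearer to the mean of the N-myc NSCs than to that of the tumours. Of the 13 genes that rose, 2 in P0C tumour cells and 6 in E16C tumour cells lay nearer to the tumour mean than to the mean of the N-myc NSCs.

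The 7 genes that fell included a matrix protein, signalling proteins and enzymes. Tnc, tenascin C, a matrix glycoprotein of neural stem cell niches, was 9.16, 8.83 and 8.79 in P0C tumours and 9.08, 8.13 and 8.03 in E16C tumours, against 12.72 in P0C and 11.89 in E16C N-myc NSCs. It fell by 3.64 ± 0.31 on the log2 scale (SE, adjusted p = 0.0159), and it was back at 11.89 and 11.24 in P0C and E16C tumour cells. Vav3, a guanine nucleotide exchange factor, had 7.02, 7.55 and 6.70 in P0C tumours and 7.98, 7.63 and 8.22 in E16C tumours, against 11.22 and 10.67 in P0C and E16C N-myc NSCs, and it fell by 3.43 (adjusted p = 0.0245). In tumour cells Vav3 was 11.72 for P0C but 7.55 for E16C. Grm3, a metabotropic glutamate receptor, was 6.24, 7.77 and 6.96 in P0C tumours and 6.16, 6.79 and 5.92 in E16C tumours, against 9.74 in both N-myc NSC arrays, and it fell by 3.10 (adjusted p = 0.0446). Rgs8, a brake on G protein signalling, had 6.17, 6.51 and 7.35 in P0C tumours and 6.18, 6.94 and 7.08 in E16C tumours, against 9.86 and 9.61 in P0C and E16C N-myc NSCs, and it fell by 3.03 (adjusted p = 0.0303). Both reach the dimmest part of the array in tumours, so these folds are compressed. Chst7, a sulfotransferase of chondroitin chains, was 5.37, 6.28 and 5.71 in P0C tumours and 5.99, 6.31 and 5.89 in E16C tumours, against 8.23 and 8.39 in P0C and E16C N-myc NSCs, and it fell by 2.39 (adjusted p = 0.0303). Lancl3, a LanC-like protein, fell by 2.08 ± 0.21, with 6.27 to 7.02 in tumours and 8.72 and 8.77 in P0C and E16C N-myc NSCs (adjusted p = 0.0236). Liph, a phosphatidic acid lipase, fell by 1.89 ± 0.25, with 4.26 to 4.89 in tumours and 6.33 and 6.67 in P0C and E16C N-myc NSCs (adjusted p = 0.0409). Lancl3 and Liph had the narrowest ranges among the tumours. Liph lay under the percentile 25 of all values in every tumour, and little above it in the N-myc NSCs. Chst7 lay under it in every tumour except E16C tumour 2 (6.31). Liph and Chst7 thus reached the brightness needed for the test through the N-myc NSCs, and their folds are compressed too. In E16C tumour cells 5 of the 7, and in P0C tumour cells 3, lay nearer to the tumour mean than to the mean of the N-myc NSCs. Microglia and vessel levels differed between the same groups, and their part in these falls was not tested.

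Sterol synthesis genes were lower in tumours throughout the list, and none passed the test. These enzymes build cholesterol from acetyl-CoA and are switched on together by the SREBP2 transcription factor when a cell lacks sterol. All 14 genes tested had a negative difference, 11 lay below both N-myc NSC arrays in every tumour (8.81% of all genes did so), and 8 did so at 2-fold, against 2.04% of all genes. The median was -1.08, with -1.01 in P0C and -1.04 in E16C, and 13 of the 14 were lower in both origins. Over all genes, 6802 of 12076 had a negative difference and 4169 of 11929 were lower in both origins. To show the control regions of genes that were lower together, the last 150 bases before the start of 4 members follow, from RefSeq on build GRCm38.p6. They are written 5′ to 3′ on the gene's strand, at chr13:119690201-119690350 (plus strand, Hmgcs1), chr13:8885456-8885605 (plus, Idi1), chr5:4104698-4104847 (minus, Cyp51) and chrX:72918371-72918520 (plus, Nsdhl). Capitals mark a sterol response element (SRE, TCACNCCAC) or a CCAAT box (CCAAT), read on either strand, so that a box on the other strand appears as ATTGG.
Hmgcs1 promoter: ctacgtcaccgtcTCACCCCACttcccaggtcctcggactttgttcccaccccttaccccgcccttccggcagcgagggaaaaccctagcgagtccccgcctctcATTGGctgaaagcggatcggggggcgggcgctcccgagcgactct
Idi1 promoter: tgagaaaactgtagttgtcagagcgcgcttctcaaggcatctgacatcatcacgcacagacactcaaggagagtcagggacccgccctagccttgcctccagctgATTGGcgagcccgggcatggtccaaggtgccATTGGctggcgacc
Cyp51 promoter: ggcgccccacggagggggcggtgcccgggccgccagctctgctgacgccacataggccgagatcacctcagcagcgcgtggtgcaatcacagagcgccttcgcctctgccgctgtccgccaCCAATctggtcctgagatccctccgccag
Nsdhl promoter: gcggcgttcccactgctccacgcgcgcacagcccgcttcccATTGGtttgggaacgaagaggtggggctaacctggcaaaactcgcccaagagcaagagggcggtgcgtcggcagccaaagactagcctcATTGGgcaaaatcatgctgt

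Promoter windows of 300 bases were at hand for 10 of the sterol genes. A CCAAT box lay in 9 of these 10 windows (90%) and in 37.9% of the 27025 windows of all promoters. The SRE lay in 1 of the 10, that of Hmgcs1, and in 1.22% of all. For comparison, 6 of 13 microglia windows (46.2%) held a CCAAT box and none an SRE, and the PU.1 motif GAGGAAGT lay in 2 of the 13 (15.4%), in none of the sterol windows and in 3.28% of all. These matches describe the letters and not binding.

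Hmgcs1, the HMG-CoA synthase at the head of the pathway, was 10.06, 9.87 and 10.15 in P0C tumours and 10.32, 9.83 and 9.65 in E16C tumours, against 10.94 in P0C and 11.41 in E16C N-myc NSCs. The 6 tumours lay within 1 log2 unit of each other and below both cultures, and the difference was -1.19 ± 0.25 (adjusted p = 0.149). Idi1, the isomerase that makes dimethylallyl pyrophosphate, had 8.46, 7.62 and 8.38 in P0C tumours and 9.45, 9.77 and 8.41 in E16C tumours, against 10.61 and 10.31 in P0C and E16C N-myc NSCs. Its difference of -1.78 was the largest of the list (adjusted p = 0.186). Cyp51, the lanosterol demethylase, was 9.16 to 9.85 in tumours and 10.53 and 10.52 in P0C and E16C N-myc NSCs (difference -1.08, adjusted p = 0.135). Nsdhl, which acts in the next demethylation steps, ran from 8.82 to 9.86 in tumours and was 10.97 and 11.11 in P0C and E16C N-myc NSCs (difference -1.72, adjusted p = 0.0862). Fdft1, squalene synthase, came nearest to the threshold with -1.53 ± 0.24 (adjusted p = 0.0769), and Mvd, a mevalonate decarboxylase, was least different at -0.43 (adjusted p = 0.607). The mean level of the 14 genes was 8.94 to 9.54 in the 6 tumours and 10.22 and 10.50 in P0C and E16C N-myc NSCs. It was 10.48 and 10.36 in P0C and E16C tumour cells and 10.48 to 10.72 in GFP NSCs, so the 7 cultures lay together above the tumours. The part that the microglia and vessel RNA of the tumours had in this difference was not tested.

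Feedback genes of the MAPK pathway had the lowest median of all lists, -1.79. Receptor tyrosine kinases such as those for EGF and FGF signal through this pathway, and their targets include inhibitors (Sprouty, Spred and Dusp proteins) and the Etv transcription factors. None of the 12 genes tested passed. In every tumour 3 lay below both N-myc NSC arrays (8.81% of all genes did so), and 2 of these (Spry2 and Etv5) did so at 2-fold (2.04% of all genes). The median was -1.14 in P0C and -2.44 in E16C. Etv5 was 7.52, 11.54 and 8.15 in P0C tumours and 7.63, 10.38 and 7.51 in E16C tumours, against 11.90 in P0C and 11.84 in E16C N-myc NSCs (difference -3.08 ± 1.12, adjusted p = 0.344). Spry2 had 7.94, 10.90 and 7.63 in P0C tumours and 7.88, 8.76 and 8.21 in E16C tumours, against 11.47 and 11.28 in P0C and E16C N-myc NSCs (difference -2.82, adjusted p = 0.223). In both genes P0C tumour 2 was the tumour nearest to the cultures, followed by E16C tumour 2. Spred2, a Spred inhibitor of Raf, was the third gene without overlap. The same tumour set the range of the list mean: it was 9.91 in P0C tumour 2 and 7.79 to 8.72 in the other 5, against 9.75 and 10.27 in P0C and E16C N-myc NSCs. With P0C tumour 2 and E16C tumour 3 left out, a choice made after seeing the data, 7 of the 12 genes were lower at 2-fold without overlap. Of all 12076 genes tested, 397 were. P0C tumour 2 was the tumour nearest to the cultures in this list, so leaving it out favours a higher count. In tumour cells the list mean was 9.85 (P0C) and 9.75 (E16C), and in GFP NSCs 10.05 to 10.34.

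The receptors upstream gave mixed values. Egfr, the EGF receptor, was 7.48, 8.00 and 9.61 in P0C tumours and 9.42, 11.50 and 8.23 in E16C tumours, against 11.07 and 10.99 in P0C and E16C N-myc NSCs (difference -1.99, adjusted p = 0.425). E16C tumour 2 was the exception, above both cultures. Pdgfra, the PDGF receptor of glial precursors and mesenchyme, had 11.17, 13.10 and 8.04 in P0C tumours and 10.16, 6.77 and 7.81 in E16C tumours, against 6.35 and 6.34 in P0C and E16C N-myc NSCs. All tumours were higher, by widely different amounts (difference 3.17 ± 1.35, adjusted p = 0.417). Ccnd1, cyclin D1, a target of mitogen signalling, was 10.29, 13.43 and 10.93 in P0C tumours and 12.51, 12.01 and 11.38 in E16C tumours, against 13.31 and 13.00 in P0C and E16C N-myc NSCs. Its paralogue Ccnd2 was 7.48, 11.32 and 12.43 in P0C tumours and 8.79, 8.84 and 7.84 in E16C tumours, against 12.15 and 12.53 in P0C and E16C N-myc NSCs (difference -2.89, adjusted p = 0.392). In Ccnd2, P0C tumour 3 lay within the range of the cultures and 4 tumours were at least 3 log2 units below it.

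Genes of cell division differed less. None of 18 mitosis genes or 19 DNA replication genes passed, none reached 2-fold without overlap, and the medians were -0.47 and -0.55. The difference was negative in 16 of the 18 mitosis genes and 18 of the 19 replication genes, and 13 and 12 of them were lower in both origins. Over all genes, 6802 of 12076 had a negative difference and 4169 of 11929 were lower in both origins. Mki67, the proliferation marker, was 9.22, 9.58 and 9.68 in P0C tumours and 10.68, 10.94 and 10.54 in E16C tumours, against 9.77 and 9.92 in P0C and E16C N-myc NSCs (difference 0.26, adjusted p = 0.772), the highest difference of the mitosis list. The 3 P0C tumours were thus below, and the 3 E16C tumours above, the N-myc NSC array of the same origin. The mean level of the mitosis list was 10.02, 9.43 and 9.76 in P0C tumours and 10.34, 10.54 and 10.11 in E16C tumours, against 10.47 and 10.51 in P0C and E16C N-myc NSCs. Ribosome biogenesis genes, a textbook target group of the Myc family, had a median of -0.23 over 18 genes, with -0.51 in P0C and 0.19 in E16C. The sign of that median changed under some settings.

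**Figure D3:**
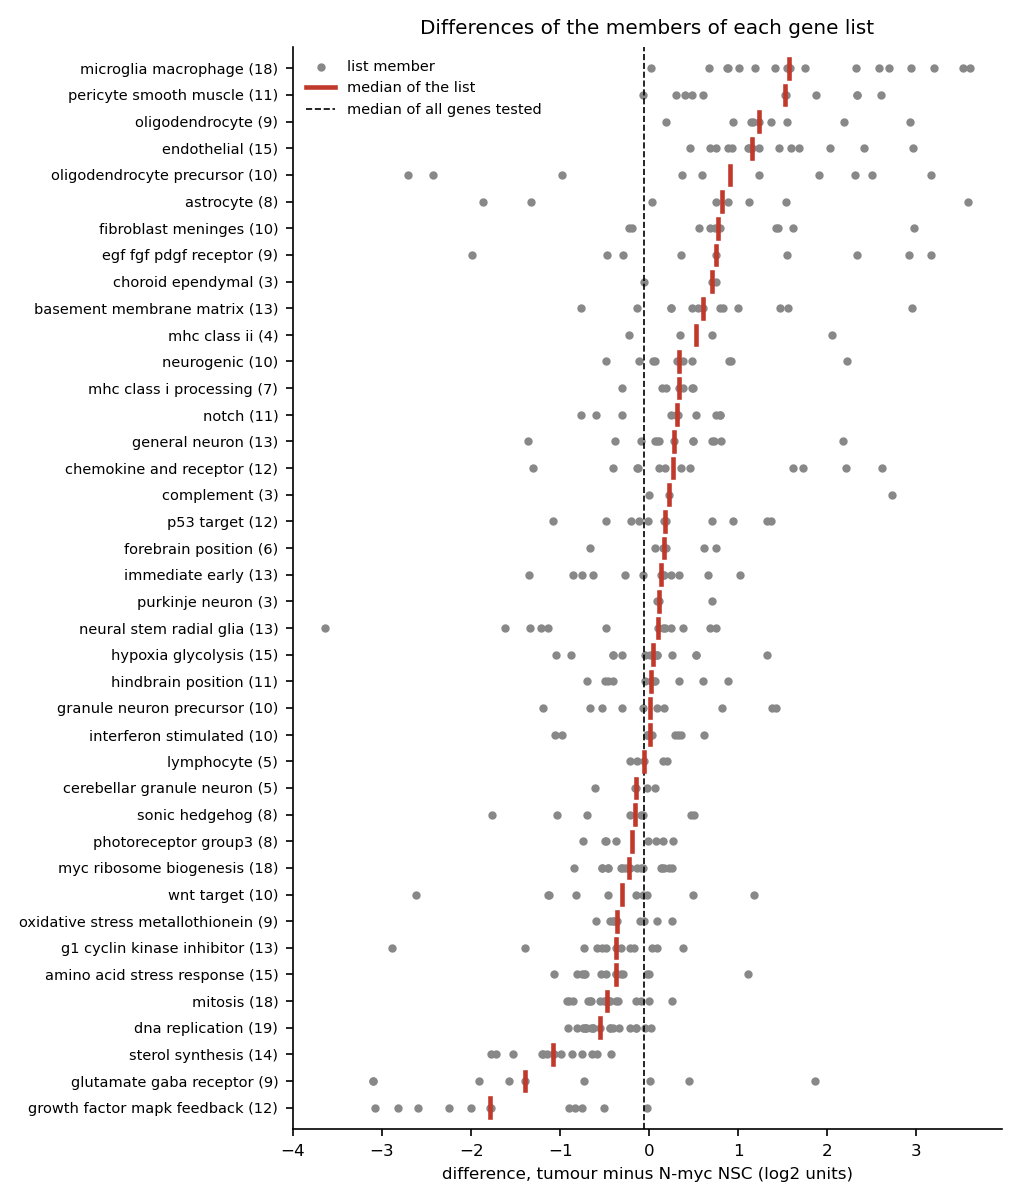
Difference (tumour minus N-myc NSC, log2 units) of each tested member of 40 gene lists with at least 3 such members, one row per list with the number of genes in brackets. Red bars are list medians and the dashed line is the median of all genes tested, -0.06; microglia, pericyte, oligodendrocyte and endothelial genes lie at the upper end, and sterol, glutamate and GABA receptor and MAPK feedback genes at the lower.

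Genes of the glial lineages had different levels by origin, given as descriptions because no gene passed the test between origins. The oligodendrocyte list, the myelin genes, had a median of 2.54 in P0C and 0.18 in E16C. Its mean level was 11.21, 9.09 and 9.97 in P0C tumours and 6.57, 6.84 and 7.57 in E16C tumours, against 7.25 and 7.00 in P0C and E16C N-myc NSCs. Mbp, myelin basic protein, was 12.19, 10.33 and 11.86 in P0C tumours and 7.11, 7.65 and 8.58 in E16C tumours, against 6.44 and 6.94 in P0C and E16C N-myc NSCs. Every P0C tumour was at least 3 log2 units above the P0C N-myc NSCs. Some precursor genes showed the same split, and E16C tumour 3 stood with the P0C tumours in part of them. Others did not. Cspg4, of the same list, was 7.14, 10.80 and 7.46 in P0C tumours and 7.43, 7.07 and 9.87 in E16C tumours. The Pdgfra values given above also overlapped between the origins. Sox10, the factor that commits cells to oligodendrocytes, was 11.38, 11.48 and 10.49 in P0C tumours and 7.18, 7.28 and 10.36 in E16C tumours, against 7.07 and 7.31 in P0C and E16C N-myc NSCs. Gpr17, a receptor of late precursors, was 11.28, 11.61 and 10.56 in P0C tumours and 5.95, 6.26 and 8.96 in E16C tumours, against 6.68 and 6.90 in P0C and E16C N-myc NSCs.

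The earlier factors of this lineage ran the other way. Olig2, which specifies oligodendrocyte precursors, was 9.93, 10.74 and 9.97 in P0C tumours and 7.46, 8.17 and 8.04 in E16C tumours, against 11.28 in P0C and 11.68 in E16C N-myc NSCs. All tumours were lower, and the E16C tumours lower than the P0C tumours (difference -2.43 ± 0.56, adjusted p = 0.158). Olig1, its neighbour on the chromosome, had 10.29, 12.21 and 10.30 in P0C tumours and 7.46, 7.78 and 8.53 in E16C tumours, against 12.21 and 12.07 in P0C and E16C N-myc NSCs. In tumour cells the origins stood apart as well: Olig2 was 10.88 in P0C and 7.26 in E16C tumour cells.

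Whether the tumour difference itself differed between origins was tested as an interaction, P0C minus E16C, over 11929 genes. No gene passed (0% called), the smallest adjusted p was 0.719, and 397 genes (3.33%) had an unadjusted p under 0.05. Of 10 precursor genes 5 were among them, and of 9 oligodendrocyte genes 3 (Mbp, Cnp and Omg). The differences of Olig2 were -1.07 in P0C and -3.79 in E16C (unadjusted interaction p = 0.00396 in limma), and those of Mbp were 5.02 and 0.84 (p = 0.00913). Tnr, a matrix protein of oligodendrocyte precursors, had 4.27 and -0.45 (p = 0.00702). The P0C and E16C differences have no array in common. Over all genes they correlated at 0.44, a description across genes, which are not independent, and 60.1% had the same direction. Of the 1224 genes that differed at least 2-fold in E16C, 79.8% went the same way in P0C.

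**Figure D4:**
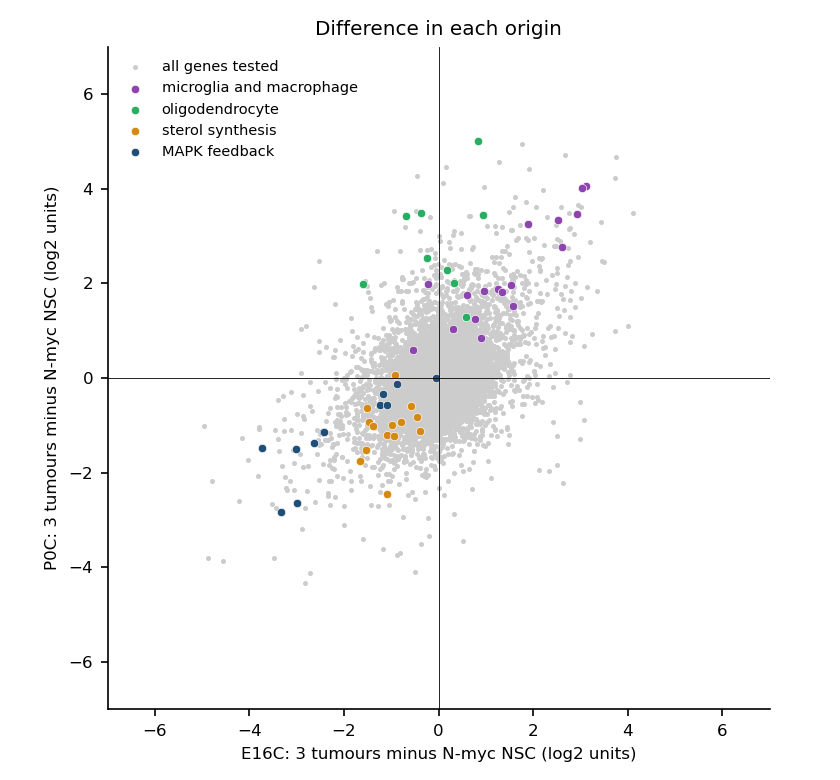
Tumour minus N-myc NSC (log2 units) in E16C on the horizontal axis and in P0C on the vertical axis, one point per gene tested in both, with 4 lists coloured. Most microglia genes lie at the upper right, most sterol and MAPK feedback genes at the lower left, and oligodendrocyte genes stretch up the vertical axis, with a median of 2.54 in P0C and 0.18 in E16C.

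Stem cell genes gave mixed values. Of 13 genes, 1 fell (Tnc), where 0.058% of all genes did. It and 2 others (Nes and Slc1a3) were lower at 2-fold without overlap, against 2.04% of all genes. The median was 0.10 over both origins, with -0.72 in P0C and -0.14 in E16C. Nes, the intermediate filament nestin of neural progenitors, was 7.92, 8.21 and 8.87 in P0C tumours and 8.98, 8.34 and 8.28 in E16C tumours, against 10.22 and 9.89 in P0C and E16C N-myc NSCs (difference -1.62 ± 0.32, adjusted p = 0.135). Sox2, a core stem cell factor, was 12.14, 11.86 and 13.24 in P0C tumours and 12.14, 12.31 and 10.28 in E16C tumours, against 11.96 and 11.72 in P0C and E16C N-myc NSCs, so that only E16C tumour 3 was low. Sox9, a factor of glial progenitors, differed by -0.84 (adjusted p = 0.582). Gfap, the filament of astrocytes, was 9.82, 10.48 and 9.21 in P0C tumours and 9.44, 9.38 and 11.25 in E16C tumours, against 5.80 in P0C and 6.91 in E16C N-myc NSCs. The groups did not overlap, yet the difference of 3.58 ± 0.56 missed the threshold (adjusted p = 0.0769). Among other astrocyte genes, Aqp4, a water channel of astrocyte endfeet, differed by 1.12 and Aldh1l1, a folate enzyme, by -1.33 (adjusted p = 0.291 and 0.356).

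**Figure D5:**
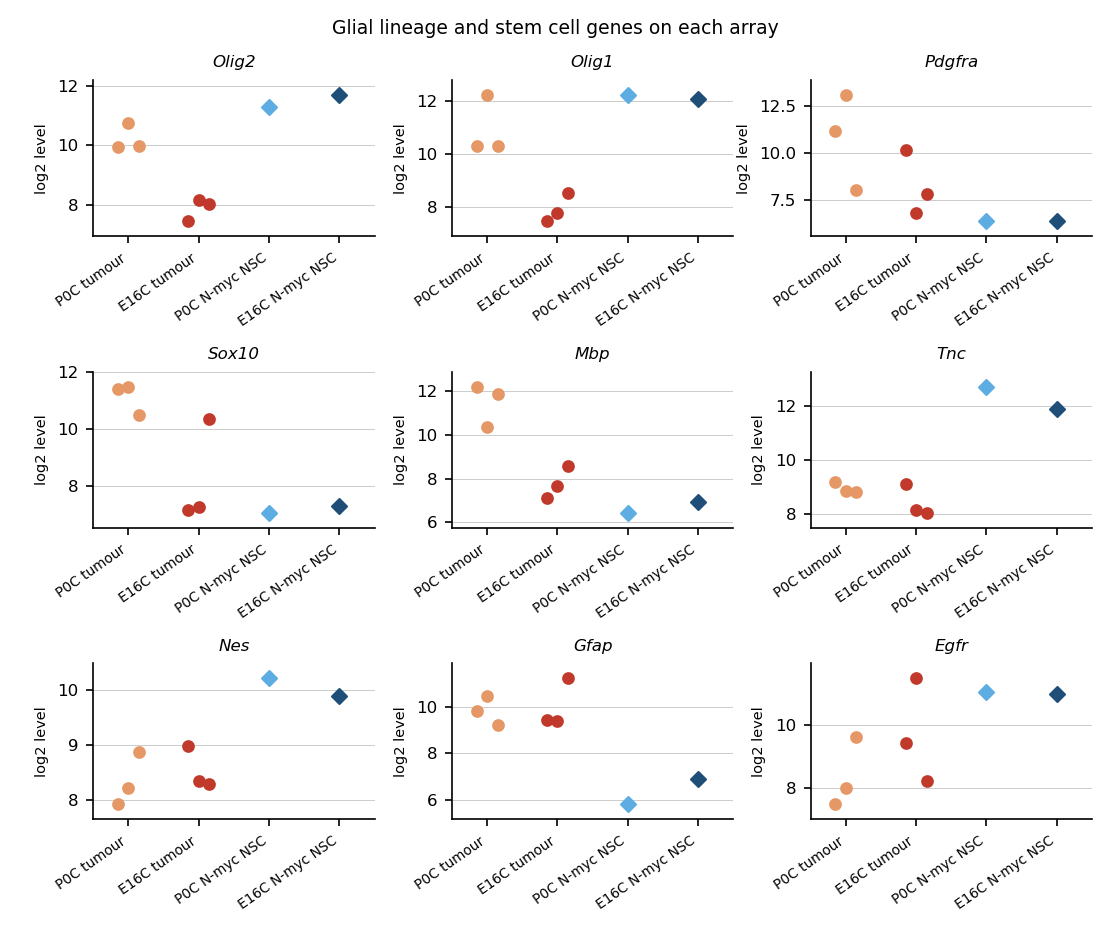
Log2 level of 9 glial lineage and stem cell genes on each array, with tumours as circles at the left and N-myc NSCs as diamonds at the right of each panel. Olig2 and Tnc are lower in every tumour, Mbp is highest in P0C tumours, and Sox10 is high in P0C tumours and in E16C tumour 3 (10.36).

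Neuronal genes were uneven. Of 13 general neuron genes none was separated between the groups, with a median of 0.28. Dcx, the doublecortin of migrating neuroblasts, was 6.32, 7.06 and 10.65 in P0C tumours and 9.42, 8.24 and 10.02 in E16C tumours, against 6.35 and 6.45 in P0C and E16C N-myc NSCs (difference 2.22, adjusted p = 0.460). P0C tumour 1 lay at the level of the cultures and P0C tumour 3 was the highest. Neurod1, a neuronal differentiation factor, was blank in both N-myc NSC arrays and in P0C tumour 2, and it reached 6.75 and 7.21 in the other P0C tumours and 7.61, 7.29 and 9.97 in the E16C tumours. Glutamate and GABA receptor genes, 9 of them tested, had a median of -1.40 with 1 that fell (Grm3), where 0.058% of all genes did. The median was -0.08 in P0C and -1.64 in E16C. Gabra2, a GABA receptor subunit, was 5.40, 9.24 and 6.32 in P0C tumours and 5.36, 5.56 and 5.59 in E16C tumours, against 9.66 and 9.03 in P0C and E16C N-myc NSCs (difference -3.10, adjusted p = 0.219), and only P0C tumour 2 was at the level of the cultures.

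Immune signalling genes outside the myeloid list were mixed. Of 12 chemokines and chemokine receptors tested, 1 rose (Cxcl16), where 0.108% of all genes did. Higher at 2-fold without overlap were 3, against 2.44% of all genes, and the median was 0.27. Ccl3, a chemokine that draws in monocytes, was 8.57, 8.54 and 7.33 in P0C tumours and 8.61, 7.72 and 9.03 in E16C tumours, against 5.88 and 6.31 in P0C and E16C N-myc NSCs (difference 2.21, adjusted p = 0.135). Cd74, the invariant chain of MHC class II, differed by 2.05 and was the 1 of 4 class II genes higher at 2-fold without overlap (2.44% of all genes were). Of 7 MHC class I and processing genes none was higher at 2-fold without overlap, and the median was 0.33. Amino acid stress genes, the targets of Atf4, had a median of -0.37 over 15 genes. Of these, 5 lay below both N-myc NSC arrays in every tumour, as did 8.81% of all genes.

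Cerebellar and signalling genes that mark medulloblastoma subgroups mostly overlapped. Atoh1, the factor of granule neuron precursors, was 6.36 and 6.16 in P0C tumours 1 and 2 and 10.68, 6.72 and 7.89 in the E16C tumours, against 6.79 in the P0C N-myc NSCs, and it was blank in P0C tumour 3 and in the E16C N-myc NSCs. Only E16C tumour 1 was high. Gli1, a readout of Sonic hedgehog signalling, ran from 6.43 to 8.74 in tumours and was 6.46 and 6.92 in P0C and E16C N-myc NSCs (difference 0.47, adjusted p = 0.745). Its receptor gene Ptch1 differed by 0.50 (adjusted p = 0.787). Otx2, a factor of other medulloblastoma subgroups, was blank in both N-myc NSC arrays and 5.61 to 6.89 in tumours, so it was dim throughout. Among WNT targets 3 of 10 were lower at 2-fold without overlap (Lgr5, Axin2 and Nkd1), against 2.04% of all genes. Lgr5, a receptor of WNT-responsive stem cells, was 7.46, 7.63 and 9.74 in P0C tumours and 8.42, 6.07 and 7.26 in E16C tumours, against 10.91 and 9.86 in P0C and E16C N-myc NSCs (difference -2.62, adjusted p = 0.223). Hypoxia and glycolysis genes had a median of 0.04 over 15 genes and interferon-stimulated genes of 0.01 over 10, with none at 2-fold without overlap in either. Cdkn1a, the p53 target p21, differed by -0.49 (adjusted p = 0.793).

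Large differences that did not pass, chosen by their size after the values were seen, add other genes with a wide spread between tumours. Apod, apolipoprotein D, a lipid carrier of glia, was 11.65, 12.21 and 9.48 in P0C tumours and 10.46, 10.56 and 10.95 in E16C tumours, against 6.88 and 6.92 in P0C and E16C N-myc NSCs (difference 3.98 ± 0.63, adjusted p = 0.0797). Kcnj3, a G protein-gated potassium channel, had 9.27, 9.45 and 9.24 in P0C tumours and 8.53, 10.75 and 8.79 in E16C tumours, against 5.67 and 6.42 in P0C and E16C N-myc NSCs (difference 3.30, adjusted p = 0.0903). Neither Apod nor Kcnj3 was above 6.90 in tumour cells or GFP NSCs. On the lower side, Chrm3, a muscarinic acetylcholine receptor, was 4.96, 8.09 and 5.23 in P0C tumours and 5.73, 4.61 and 4.89 in E16C tumours, against 9.89 and 9.96 in P0C and E16C N-myc NSCs. Its difference of -4.34 was the lowest of all genes tested (adjusted p = 0.108). Chl1, a neural cell adhesion molecule, had 5.37, 10.30 and 5.87 in P0C tumours and 5.30, 9.01 and 6.09 in E16C tumours, against 11.04 and 11.35 in P0C and E16C N-myc NSCs (difference -4.21, adjusted p = 0.302). For both genes P0C tumour 2 was the highest tumour. Igf2bp3, an RNA-binding protein of fetal tissue, was 5.10 to 7.55 in tumours and 8.98 and 9.52 in P0C and E16C N-myc NSCs (difference -3.40, adjusted p = 0.104).

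Genes blank in both N-myc NSC arrays numbered 691, and in 132 of them all 6 tumours had a value. In 5 of the 132 every tumour exceeded 6.30: Arl11, S100a6, S1pr4, Sp7 and Trhr2, named after their values were seen. S100a6, a calcium-binding protein, was 6.82, 8.65 and 7.08 in P0C tumours and 6.78, 7.08 and 7.93 in E16C tumours, and 12.67 in E16C tumour cells. The genes with the highest tumour means were others, and some tumours were dimmer or blank in them. Cldn5, the tight junction protein of brain endothelium, was 7.99, 8.50 and 8.05 in P0C tumours and 6.23, 8.51 and 7.86 in E16C tumours, and 6.39 in P0C tumour cells, while it was blank in both N-myc NSC arrays. Tceal1, a small regulator of transcription, was 6.19 and 7.87 in P0C tumours 1 and 3 and 9.24, 8.12 and 8.49 in the E16C tumours, with a blank in P0C tumour 2.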

How the data were processed

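Trizol and column-purified RNA was hybridised to Affymetrix whole-transcript arrays, and tumours and cultured cells had the same labelling protocol, per the labels. The authors deposited log2 expression values; the submitters' processing notes name RMA and build mm9. RMA settings and the rule behind blank cells (3.12% of values) were not given in the sources used here. Of 17831 probes, 15620 had 1 gene symbol and gave 15224 genes; 375 genes had several probes and took the brightest. A gene was tested with at least 2 of the 8 arrays above the percentile 25 (6.30), at least 1 N-myc NSC value and at least 2 tumour values per origin. Models with tumour and origin as additive terms were fitted with limma 3.58.1 in R 4.3.3, blanks left out, with Benjamini-Hochberg adjustment over 12076 genes. Single genes have no exact test of use: 6 against 2 arrays cannot go below p = 0.0714. The 41 lists and the members were chosen with earlier results of these data known; 454 of their 535 genes were measured and 415 tested. Named genes were the 12 largest rises and falls among genes past the test without overlap, up to 4 such genes per list, the brightest genes blank in both N-myc NSC arrays and 17 fixed genes; list examples that did not pass were chosen after their values were seen. Alternatives covered filters, probe averaging, normalization, moderation, weights, all 18 arrays of transplanted tumours and of cultures together, filled blanks, the origin term and each array left out. The fit was also run on simulated data with the residual spread of the real fit, over 11899 genes of which 200 were changed. Simulated noise was independent between genes, and each gene had the same spread in all 8 arrays. Whether N-myc NSC cultures vary like the tumours could not be checked, so the rates may not carry over to the real arrays. In the simulation the fit recovered 18% of changes of 1 log2 unit and 69% of changes of 2 log2 units, with 5 false calls. A gene that did not pass may therefore still differ.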

Additional observations from a re-analysis of the deposited data

Results flagged for a closer look

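In 37 genes the 6 tumours were searched for an array far from the others by Dixon's ratio of gap to range, and 2 genes had one; chance alone gives about 1 in 20. In Gdpd3, E16C tumour 3 was low at 8.61, where the other tumours were 9.94 to 10.34 (ratio 0.765, critical value 0.625). In Vegfa, P0C tumour 2 was high at 12.42, where the others were 9.58 to 10.58 (ratio 0.648).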

How the results depend on the processing

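The count of genes that passed was 13 higher and 7 lower. It was 20 higher with a stricter filter (percentile 50), 54 higher and 47 lower with all 18 arrays of tumours and cultures in one model (19 of the 20 genes among them), 33 higher with blanks filled, 12 lower with array weights and 24 lower without P0C tumour 2 and E16C tumour 3. Leaving out 1 array at a time gave 0 to 26 higher and 0 to 32 lower. Without either N-myc NSC array, or without E16C tumour 2, none passed in limma, with 831 to 1401 genes at an unadjusted p under 0.05. Under the alternatives not named here both counts stayed within 1.5 times of these. No gene of the 20 turned its direction under any alternative run, but each lost its call under at least 4. The share of higher genes was 65.0%, and 77.3% with arrays centred on their medians, 80.5% with blanks filled, 53.5% with the 18 arrays, 44.8% without P0C tumour 2 and 42.9% without P0C tumour 2 and E16C tumour 3. The median of all genes was -0.06, and 0.06 after quantile normalization and 0.08 after centring. For the interaction 0 genes passed, and 1 with blanks filled. List medians kept their sign for microglia (1.35 to 2.04), endothelial (0.71 to 1.77), sterol (-1.11 to -0.93) and MAPK feedback genes (-2.44 to -1.14), and changed it for 16 lists, neural stem cell, oligodendrocyte precursor and ribosome biogenesis genes among them. No paired analysis was possible because the N-myc NSC arrays, 1 per origin, carry no replicate number. The 2 N-myc NSC arrays limit every result.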

Other observations

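Hoxb2, a hindbrain patterning gene, was 10.43 in E16C tumour 1 and 9.04 in E16C tumour cells, and it was blank or at most 5.89 in the other 5 tumours and blank in both N-myc NSC arrays. Magea4, a cancer-testis gene, was 9.45 in P0C tumour 1, 7.17 in P0C tumour 3 and 7.98 in E16C tumour 3, and blank in both N-myc NSC arrays. Igf2, a fetal growth factor, was 11.86 in E16C tumour 3 and 7.34 to 7.73 in the other tumours, against 6.88 and 6.73 in P0C and E16C N-myc NSCs. Its difference of 1.45 ± 1.07 (SE) did not pass the test (adjusted p = 0.644 in limma). These genes were chosen after their values were seen, and Hoxb2 and Magea4, blank in both N-myc NSC arrays, were not tested.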
